A study of Mus musculus with 8 samples.

Results

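Metallothioneins and the genes that move and sense zinc were described in the mouse hepatocyte line AML-12, an established cell line, with and without overexpression of the long non-coding RNA gene Gm47544. The genes were chosen by symbol: Mt1, Mt2, Mtf1, Slc30a1, Slc39a10 and Slc39a14, 6 of 21983 symbols in the count table, and all 6 had a row. The control group was 4 libraries of cells carrying pLKO.1, a lentiviral vector, with genotype WT. The other group was 4 libraries of AML-12 cells with genotype GM47544 overexpressed, whose labels name no vector or clone. All cells were grown in DMEM with fetal bovine serum and antibiotics, and no metal treatment is named in the labels. The series title concerns ubiquitination of APOC3 by GM47544, and the comparison asked which transcripts differed when this RNA was overexpressed. Whether the 4 libraries of each group are separate cultures is not in the labels, so each p-value is set against a spread among libraries that could be technical.

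Metallothioneins are small cysteine-rich proteins that bind zinc, copper and cadmium, and the liver makes them in large amounts. The zinc-finger factor MTF-1, product of Mtf1, senses free zinc and binds metal response elements in the promoters of Mt1, Mt2 and Slc30a1. Most transporters named Slc30 (ZnT) move zinc out of the cytosol, and most of those named Slc39 (ZIP) move it in. Slc30 genes are called exporters and Slc39 genes importers here by family name, which need not hold for each member. ZnT1, from Slc30a1, exports zinc at the cell surface. ZIP10, from Slc39a10, imports zinc, and its gene is known to be repressed by MTF-1. ZIP14, from Slc39a14, is a liver importer of zinc, manganese and iron that rises in inflammation.

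Mt1 and Mt2 lie side by side on chromosome 8 (GRCm38, GENCODE M21): Mt2 from 94172664 to 94173568 and Mt1 from 94179082 to 94180327, both on the plus strand and 5513 bases apart. Their coding sequences are shown without the stop codon because the values below depend on telling these 2 genes apart. Capitals mark the 38 of 183 positions at which they differ.
Mt1: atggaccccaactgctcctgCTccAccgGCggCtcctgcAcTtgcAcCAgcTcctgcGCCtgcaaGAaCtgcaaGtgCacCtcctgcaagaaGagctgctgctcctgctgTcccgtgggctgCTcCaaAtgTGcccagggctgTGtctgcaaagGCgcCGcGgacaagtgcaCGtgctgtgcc
Mt2: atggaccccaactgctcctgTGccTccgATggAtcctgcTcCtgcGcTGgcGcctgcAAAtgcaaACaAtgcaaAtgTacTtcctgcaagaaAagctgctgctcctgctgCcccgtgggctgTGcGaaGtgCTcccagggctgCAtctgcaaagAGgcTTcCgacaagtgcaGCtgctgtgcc
The coding sequences were identical at 79.2% of positions, and in each of them 20 of 61 codons were TGT or TGC, the codons of cysteine. The longest run shared by the 2 principal transcripts was 20 bases. No 50-base window of either was found in the same orientation in an annotated transcript of another gene. An exact match of that length and orientation would thus separate Mt1 from Mt2. The opposite strand, where Mt2 overlaps the antisense gene Gm45774, was not searched. No source used here gives the read length.

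The 250 bases before the RefSeq start sites of Mt1 and Mt2 are shown because both genes changed together. Capitals mark each core of the metal response element, searched as TGCACNC or TGCGCNC on both strands. The Mt1 stretch is chr8:94178839-94179088 and the Mt2 stretch chr8:94172368-94172617 (RefSeq, GRCm38.p6, plus strand).
Mt1 upstream: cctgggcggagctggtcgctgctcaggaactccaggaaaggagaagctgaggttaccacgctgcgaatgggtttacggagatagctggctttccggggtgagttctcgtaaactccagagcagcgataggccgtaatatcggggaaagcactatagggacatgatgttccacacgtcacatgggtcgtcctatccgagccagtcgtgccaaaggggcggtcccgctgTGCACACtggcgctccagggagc
Mt2 upstream: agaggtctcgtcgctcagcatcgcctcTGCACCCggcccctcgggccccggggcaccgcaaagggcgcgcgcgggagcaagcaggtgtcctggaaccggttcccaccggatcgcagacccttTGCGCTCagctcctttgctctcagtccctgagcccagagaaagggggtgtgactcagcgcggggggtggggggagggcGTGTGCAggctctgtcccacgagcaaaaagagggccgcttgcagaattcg
With the 50 bases after the start site included, the 300-base window held 3 matches for Mt1 and 4 for Mt2. Of 32851 such mouse windows, 1.97% held at least 3 matches and 0.517% at least 4. The Slc30a1 window held 2 matches, a count that 7.11% of windows reached. No match was found in the window of Mtf1 or in either window of Slc39a10, which says only that these letters are not there.

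More matches lay inside the annotated transcripts, before the start codons. They are shown with 6 bases on each side, cores in capitals, and the coordinates are those of the core.
Mt1 chr8:94179091-94179097: gagctcTGCACTCcgcccg
Mt1 chr8:94179109-94179115: gaaaagTGCGCTCggctct
Mt1 chr8:94179173-94179179: cctgctGGGTGCAaaccct
Mt1 chr8:94179187-94179193: acccttTGCGCCCggactc
Mt2 chr8:94172676-94172682: aagggcGTGTGCAggcggc
Mt2 chr8:94172695-94172701: gggggcGCGTGCAtggtgc
Mt2 chr8:94172729-94172735: agctttTGCGCTCgaccca
Counted once each from the start of the RefSeq window to the start codon, Mt1 had 5 matches and Mt2 had 7. The letters TATAAA, the usual form of a TATA box, began 101 bases before the Mt1 start codon and 95 before that of Mt2, downstream of both annotated starts and of every match. In the last 180 transcript bases before the start codon, Mt1 had 2 matches, Mt2 had 3 and Slc39a10 had 2, while Slc30a1 and Slc39a14 had 0. Mtf1, with 146 bases before its start codon, was too short for this count. Of 9861 transcripts with at least 180 such bases, 3.88% had at least 2 matches and 0.669% at least 3. A match describes the sequence and is not evidence of binding.

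**Figure D1:**
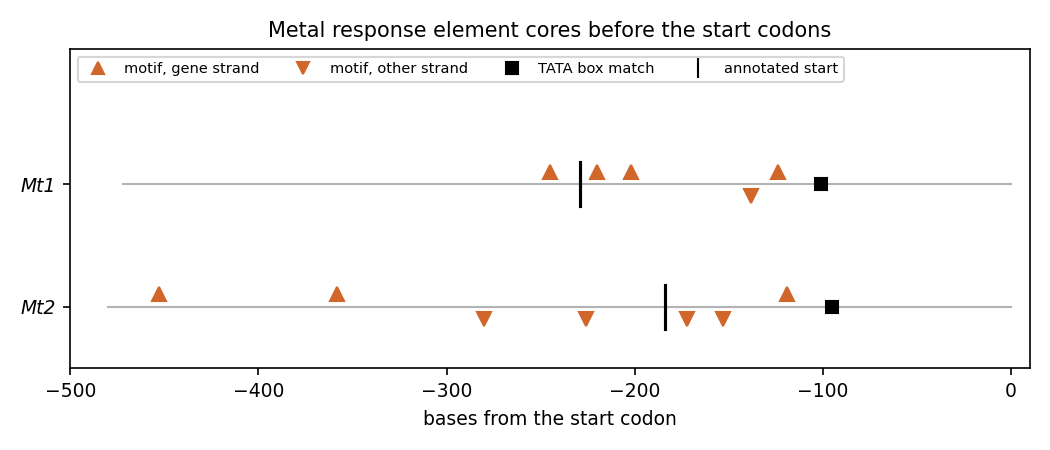
Metal response element cores before the start codons of Mt1 and Mt2, by distance from the start codon in bases. Triangles pointing up are matches on the gene's strand, triangles pointing down are matches on the other strand, squares are TATAAA and the vertical bars are the GENCODE starts, and the grey lines show the stretch searched. All 5 matches of Mt1 and all 7 of Mt2 lie farther from the start codon than TATAAA.

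The libraries held between 11016907 and 18965662 counts. CPM is the count per 1000000 library counts, with library sizes scaled by edgeR's trimmed-mean factors, and fold changes are overexpression over control. Of 11520 genes tested, 64.4% passed 0.05 after Benjamini-Hochberg adjustment over all of them (edgeR quasi-likelihood), 32.3% higher and 32.1% lower, so passing that test alone was common. Control library 3 stood apart from the other controls on the first principal component, at -24.1 against -62.4 to -51.6, with the overexpression libraries between 45.2 and 52.2. Of 13 tested hepatocyte markers, 3 rose and 5 fell, and these 61.5% were near the 64.4% of all genes tested. Krt8, Krt18 and Hnf4a were abundant in both groups (control means of 2170, 1861 and 348 CPM), though Krt18 was called lower (log2 fold change -0.59). Asgr1 had 1 count in the controls and 0 with overexpression, and Cps1 had 2 and 35 counts. Other hepatocyte markers moved in opposite directions: Alb rose from 22.3 ± 3.85 to 267 ± 28.2 CPM, Ttr fell from 1321 ± 239 to 279 ± 24.2 CPM and Serpina1a fell from 100.8 ± 19.4 to 31.1 ± 3.44 CPM (SD, n = 4). Summed hepatocyte markers ranged from 4724 to 7357 CPM in controls and from 4538 to 4961 CPM with overexpression. Cholangiocyte markers, of which Krt7, Krt19 and Spp1 were abundant, summed to 2897 to 4287 CPM in controls and 4614 to 5234 CPM with overexpression. Of these, Spp1 alone rose, from 943 ± 209 to 2731 ± 114 CPM (SD, n = 4), while Krt19 and Sox9 fell (log2 fold changes of -0.40 and -0.66) and Krt7 did not pass (-0.16). The part of these markers in the results was not tested. The Kupffer cell and leukocyte markers, mostly Cd14, summed to 828 to 1292 CPM in controls and 599.9 to 746 CPM with overexpression, and the stellate cell and fibroblast markers to 3.56 to 5.47 and 9.86 to 17.5 CPM. Endothelial markers summed to 0.125 to 0.536 CPM in controls and 1.37 to 2.18 CPM with overexpression. Cdh5, the only endothelial marker tested, had 7 control and 71 overexpression counts in all (log2 fold change 3.36). Of the Kupffer cell and leukocyte markers, Clec4f and Adgre1 were at 0 counts in every library, and of the stellate cell and fibroblast markers Lrat, Col1a2 and Col3a1 were.

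Both expressed metallothionein genes fell steeply with Gm47544 overexpression. Mt1 had 514, 467, 355 and 446 CPM in control libraries 1 to 4 (counts of 5807, 8716, 5674 and 5809). In overexpression libraries 1 to 4 it had 23.2, 27.1, 28.7 and 29.0 CPM (counts of 271, 491, 329 and 389). The lowest control value was thus over 10 times the highest overexpression value. In RNA from whole cultures, fewer cells making a transcript and less of it per cell cannot be told apart. The group means were 445 ± 66.8 and 27.0 ± 2.64 CPM (SD, n = 4). The log2 fold change was -4.04 with an SE of 0.15 (edgeR quasi-likelihood, adjusted p = 2.68e-09), or 16.5-fold lower.

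Mt2 fell further than Mt1. Mt2 had 184, 179, 133 and 184 CPM in control libraries 1 to 4 (counts of 2076, 3336, 2133 and 2400), control library 3 being the lowest, as it was for Mt1. In the overexpression libraries it had 3.34, 2.53, 3.40 and 3.80 CPM, from only 39, 46, 39 and 51 counts. The means were 170 ± 24.6 and 3.27 ± 0.53 CPM (SD, n = 4). The log2 fold change was -5.71 with an SE of 0.18 (edgeR quasi-likelihood, adjusted p = 9.23e-10), or 52.4-fold lower. Among the 11520 genes ordered from the lowest log2 fold change, Mt2 stood at place 19 and Mt1 at place 34. A fall of at least 10-fold was called for 46 genes, or 0.399%. Mt2 shares 432 of its 588 exon bases (73.5%) with the antisense gene Gm45774, and the strand setting of the counting is not given, so reads of the pair cannot be told apart and the Mt2 values are uncertain to that extent. No annotated gene overlaps Mt1.

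**Figure D2:**
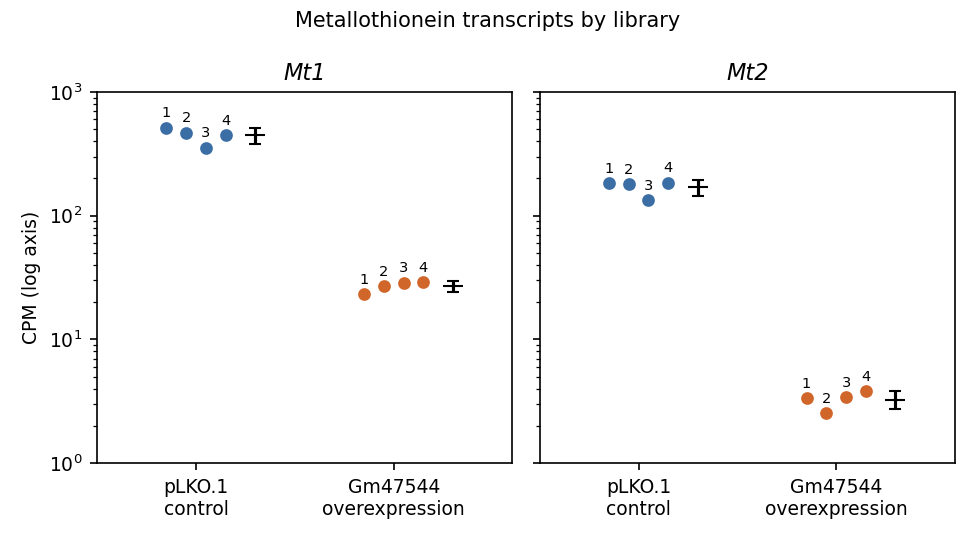
CPM of Mt1 and Mt2 in each library on a log axis. Points are libraries, labelled with their replicate number, and the black marks are group means ± SD (n = 4). In both panels every overexpression library lies below every control library, Mt1 at 23.2 to 29.0 against 355 to 514 CPM and Mt2 at 2.53 to 3.80 against 133 to 184 CPM.

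Both mRNAs are short, and short transcripts as a class were lower in the overexpression libraries. The principal transcripts of Mt1 and Mt2 have 549 and 511 bases. Among 214 tested genes with a principal transcript under 700 bases, 157 fell and 15 rose, with a median log2 fold change of -0.95. Of these 214, 5 had a log2 fold change at or below that of Mt1, itself included, and 2 at or below that of Mt2. With the trend on transcript length removed from each library, the log2 fold change of Mt1 was -3.11 (adjusted p = 2.13e-09) and that of Mt2 -4.75 (adjusted p = 2.98e-10, both edgeR), or 8.61-fold and 26.8-fold lower. Both falls passed the test in all 17 alternatives, with adjusted p between 8.61e-172 and 9.23e-08 for Mt1 and between 2.52e-204 and 4.04e-08 for Mt2.

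As a share of the library total, Mt1 and Mt2 together took 0.0587 ± 0.00698% of all counts in controls and 0.00316 ± 0.000283% with overexpression (SD, n = 4). The ratio of the 2 genes within a library needs no scaling between libraries. There were 2.80, 2.61, 2.66 and 2.42 Mt1 counts for each Mt2 count in control libraries 1 to 4. In overexpression libraries 1 to 4 the ratio was 6.95, 10.7, 8.44 and 7.63, above every control. The means were 2.62 ± 0.156 and 8.42 ± 1.62 (SD, n = 4), and the mean log2 ratio differed by 1.67 (two-sided exact permutation test over libraries, p = 0.0286, the smallest that 4 against 4 allow). The fall of the Mt2 counts was thus larger than that of the Mt1 counts within the same libraries. The overlap of Mt2 with Gm45774 limits this ratio as it does the Mt2 values. The other metallothionein genes of the table, Mt3 and Mt4, which are known from brain and squamous epithelium, had 0 counts in all 8 libraries.

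Mtf1 did not pass the test. Mtf1 (chromosome 4, 124802104 to 124849800, plus strand, GRCm38) had 19.6, 21.4, 21.1 and 22.4 CPM in control libraries 1 to 4 and 22.3, 25.6, 21.4 and 21.4 CPM in overexpression libraries 1 to 4. The groups overlapped, and overexpression library 2 was the highest. The means were 21.2 ± 1.15 and 22.6 ± 1.99 CPM (SD, n = 4). The log2 fold change was 0.10 with an SE of 0.12 (edgeR quasi-likelihood, adjusted p = 0.476). Its 95% interval, from the SE and the 6 residual degrees of freedom of the libraries, ran from -0.19 to 0.39. The sign depended on whether the trend on transcript length was removed. The principal transcript of Mtf1 has 7631 bases. With the length trend removed its log2 fold change was -0.49 and was called (adjusted p = 0.00565, edgeR, over a range of 0.00565 to 0.842 in the alternatives). Mtf1 shares 721 of 8907 exon bases with 1110065P20Rik on the opposite strand.

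Slc30a1, the exporter gene that MTF-1 is known to induce, had 0 counts in every library. A count of 0 over a group allows up to 3 counts, or 0.0509 CPM over the controls and 0.0548 CPM over the overexpression libraries (counting error only), so no comparison could be made. No 50-base window of the principal transcript of Slc30a1 occurs in the same orientation in a transcript of another gene. Slc30a1 (chromosome 1, 191906767 to 191913247, plus strand, GRCm38) has 5244 exon bases, of which 468 overlap the antisense gene 1700034H15Rik. It sat within a run of 4 neighbouring protein-coding genes at 0 counts in all libraries, named here after their values were seen: Nek2, a kinase of the centrosome in dividing cells, Slc30a1, Rd3, a gene of the retina, and Traf5, an adaptor of TNF receptors. The genes on either side had counts in every library, Lpgat1 between 1066 and 2238 and Rcor3 between 62 and 138, and they lie 314.3 kilobases apart. In all, 5702 of 21983 symbols had 0 counts in every library. Why this run is at 0 was not tested.

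The importer Slc39a10 was not called in either direction, and control library 3 held its highest value. Slc39a10 (chromosome 1, 46807544 to 46892852, minus strand, GRCm38) had 84.1, 93.7, 138.8 and 74.3 CPM in control libraries 1 to 4. In overexpression libraries 1 to 4 it had 84.2, 80.7, 68.7 and 78.1 CPM, within the range of the other controls except for library 3 of that group, the lowest of all 8. The means were 97.7 ± 28.5 and 77.9 ± 6.63 CPM (SD, n = 4). The log2 fold change was -0.33 with an SE of 0.17 and a 95% interval from -0.75 to 0.091 (edgeR quasi-likelihood, adjusted p = 0.109). Without control library 3 the log2 fold change was -0.14, and without control library 4 it was -0.44 and called (edgeR, adjusted p = 0.18 and 0.032). It was called lower with the length or the GC trend removed as well (log2 fold changes of -0.70 and -0.67, edgeR, adjusted p = 3.97e-04 and 2.49e-05, over a range of 2.49e-05 to 0.351 in the alternatives).

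The importer Slc39a14 did not pass the test either. Slc39a14 (chromosome 14, 70303469 to 70351425, minus strand, GRCm38) had 98.5, 112.3, 104.5 and 100.9 CPM in control libraries 1 to 4 and 103.0, 101.0, 91.7 and 94.5 CPM in overexpression libraries 1 to 4. The groups overlapped, with the highest value in control library 2 and the lowest in overexpression library 3. The means were 104.0 ± 6.07 and 97.6 ± 5.32 CPM (SD, n = 4). The log2 fold change was -0.093 with an SE of 0.10 and a 95% interval from -0.34 to 0.15 (edgeR quasi-likelihood, adjusted p = 0.434). It was 0.032 with scaling by library totals alone. With the length trend removed it was -0.42 and with the GC trend removed -0.20, both called (edgeR, adjusted p = 0.00278 and 0.0278, over a range of 0.00278 to 0.801 in the alternatives).

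**Figure D3:**
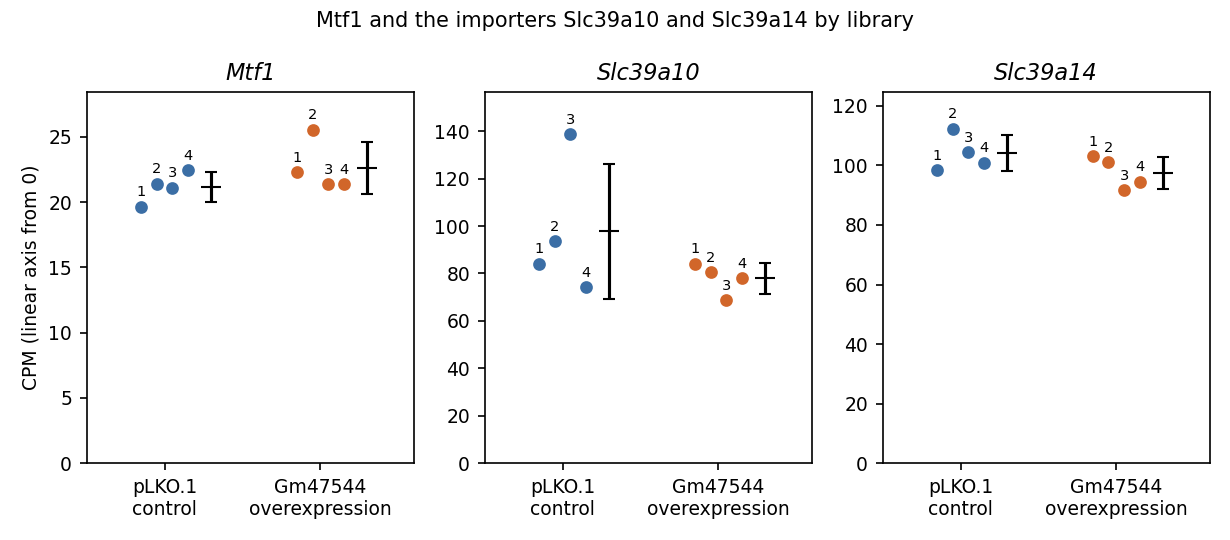
CPM of Mtf1, Slc39a10 and Slc39a14 in each library on linear axes that start at 0. Points are libraries with their replicate number and the black marks are group means ± SD (n = 4). The groups overlap in all 3 panels, and control library 3 is the highest value of Slc39a10 at 138.8 CPM.

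Levels of different genes were set side by side as CPM per kilobase of the principal transcript. In controls the order was Mt1 at 811 ± 122, Mt2 at 333 ± 48.2, Slc39a14 at 21.1 ± 1.23, Slc39a10 at 17.8 ± 5.18, Mtf1 at 2.77 ± 0.151 and Slc30a1 at 0 (CPM per kilobase, SD, n = 4). The ranges of Slc39a14 and Slc39a10 overlapped, and those of the other neighbours did not. With overexpression the order of the levels was Mt1 at 49.2 ± 4.81, Slc39a14 at 19.8 ± 1.08, Slc39a10 at 14.2 ± 1.21, Mt2 at 6.40 ± 1.04 and Mtf1 at 2.97 ± 0.261 (CPM per kilobase, SD, n = 4), with no overlap between neighbours. In these levels Mt2 had thus moved from above both importers to below them. Among 11491 tested genes with a length, the level of Mt1 went from place 68 to place 1504 and that of Mt2 from place 201 to place 7867. The trend on transcript length was not removed from these levels. With it removed, the log2 fold changes were -4.75 for Mt2, -0.70 for Slc39a10 and -0.42 for Slc39a14 (edgeR). Whether the order and the places with overexpression would then hold was not tested.

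Of the 6 members, 5 passed the count filter and Slc30a1 did not. Of those 5, 2 were called, or 40%, against 64.4% of all genes tested. Both were lower by more than 2-fold, as were 9.02% of all genes tested. Their groups did not overlap, while the 3 that were not called did. Non-overlap alone held for 56% of all genes tested. The median log2 fold change of the 5 was -0.33, beside 0.000406 over all genes tested.

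The wider zinc transporter families changed in both directions and by far less than the metallothioneins. Of 24 genes of the Slc30 and Slc39 families, 5 had 0 counts in all libraries, 15 were tested, 3 rose and 6 fell, with a median log2 fold change of -0.31. The 9 called were 60% of the 15, close to the 64.4% of all genes tested. Over all genes tested, 32.3% rose and 32.1% fell. Among the 4 tested exporters, 2 rose and 0 fell, and among the 11 tested importers, 1 rose and 6 fell. The split depended on the processing. DESeq2, which tested 18 transporters, gave 3 higher and 8 lower. With 15 tested, voom gave 5 higher and 7 lower, library totals alone 4 and 6, and the GC trend removed 2 and 9. The length trend removed gave 1 and 8, also of 15, with both exporter rises lost. Besides Slc30a1, the exporters Slc30a3, Slc30a4, Slc30a8 and Slc30a10 were at 0.

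Importer genes made up all 6 transporters that fell, and they were also 11 of the 15 transporters tested. Slc39a7, which releases zinc from the endoplasmic reticulum, had 261, 228, 169 and 280 CPM in control libraries 1 to 4 and 163, 155, 154 and 143 CPM in overexpression libraries 1 to 4. Its groups did not overlap, the lowest control being library 3 (log2 fold change -0.61 with an SE of 0.14, edgeR quasi-likelihood, adjusted p = 0.00258). Slc39a11 had 122, 110, 74.0 and 130 CPM against 50.7, 43.9, 47.9 and 45.6 CPM, again with control library 3 nearest to the other group (log2 fold change -1.21, SE 0.16). Slc39a1, a zinc importer of the cell surface, had 203, 167, 124 and 203 CPM against 118, 120, 133 and 129 CPM, so that control library 3 lay within the overexpression range (log2 fold change -0.48, SE 0.15). The log2 fold changes of Slc39a3 and of Slc39a13, a transporter of the secretory pathway, were -0.60 and -0.64. Slc39a5 had 63 control and 21 overexpression counts in all (log2 fold change -1.44, SE 0.37). All 6 were called in each of the 17 alternatives, but with the GC trend removed the log2 fold changes were nearer 0, at -0.28 for Slc39a7, -0.29 for Slc39a3, -0.33 for Slc39a13 and -0.23 for Slc39a1. Slc39a4, named after its values were seen, with the highest level of all the transporters at 158 ± 32.5 CPM per kilobase in controls and 127 ± 5.58 with overexpression (SD, n = 4), did not pass (log2 fold change -0.31 with an SE of 0.14, edgeR quasi-likelihood, adjusted p = 0.0672, 7.29e-05 to 0.786 over the alternatives). Slc39a8, an importer closely related to Slc39a14, was below the count filter with 14 control counts and 0 with overexpression. With 3 counts over the overexpression group as the floor, the pooled control level of Slc39a8 was 4.33 times that floor. Of the 14 counts 8 were in control library 3, and without that library, a choice made after seeing the data, it was 2.55 times. Both values take the few control counts as exact, so neither is a lower bound of the fold.

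The transporters that rose were Slc39a9, Slc30a7 and Slc30a9. Slc39a9, a Golgi transporter, had 44.4, 54.4, 64.0 and 43.8 CPM in control libraries 1 to 4 and 86.5, 83.3, 81.9 and 85.3 CPM in overexpression libraries 1 to 4 (log2 fold change 0.70 with an SE of 0.13, edgeR quasi-likelihood, adjusted p = 4.94e-04). Slc30a7, which loads zinc into the early secretory pathway, had 40.0, 35.7, 51.0 and 29.0 CPM against 60.8, 60.5, 57.2 and 60.5 CPM (log2 fold change 0.62, SE 0.15). The groups of these 2 genes did not overlap, and control library 3 was the control nearest to the overexpression values. With the length trend removed the log2 fold change of Slc30a7 was -0.032 (adjusted p = 0.82, edgeR, 4.11e-07 to 0.894 over the alternatives). Slc30a9 had 72.5, 72.7, 107.5 and 66.0 CPM against 102.7, 103.6, 101.2 and 106.9 CPM, so control library 3 was the highest of all 8 (log2 fold change 0.38 with an SE of 0.14, edgeR quasi-likelihood, adjusted p = 0.0346). The Slc30a9 call was lost in 10 of 17 alternatives, among them without any 1 library other than control library 3, and its log2 fold change was -0.020 with the length trend removed. The exporters Slc30a5 and Slc30a6, with log2 fold changes of 0.27 and 0.014, and the importer Slc39a6, at 0.12, did not pass.

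**Figure D4:**
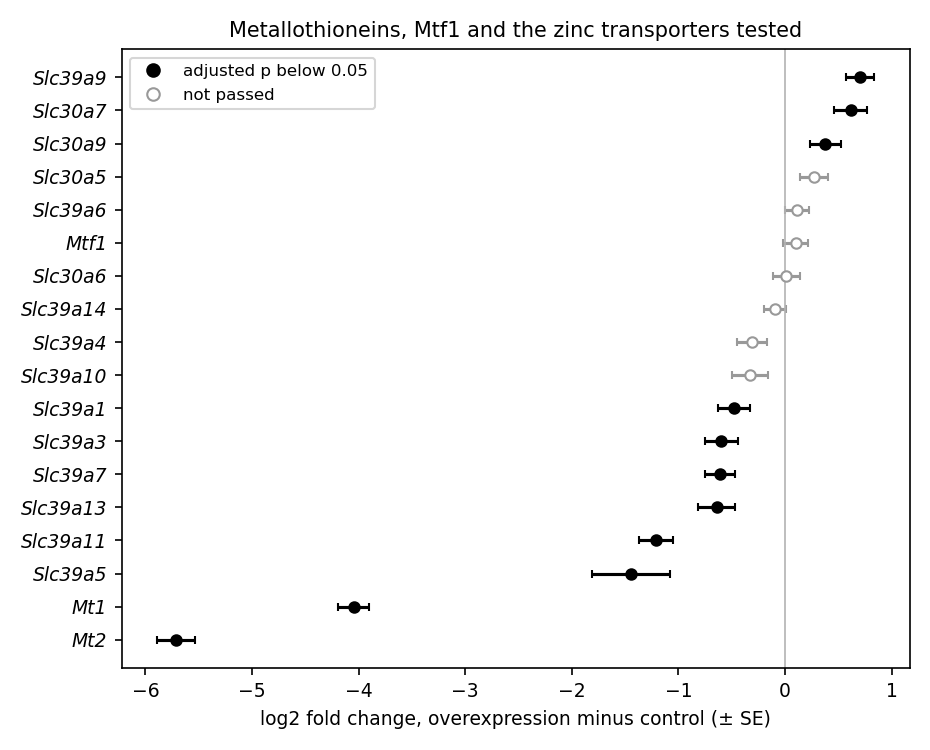
Log2 fold changes of Mt1, Mt2, Mtf1 and the 15 tested zinc transporters, with bars of 1 SE. Filled points passed 0.05 after adjustment (edgeR) and open points did not. Mt1 and Mt2 lie at -4.04 and -5.71, and the transporters between -1.44 and 0.70.

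Copper genes were described beside those of zinc because metallothioneins bind copper as well. Of 13 tested copper handling genes, Mtf1 among them, 6 fell and 2 rose (median log2 fold change -0.23), and these 61.5% were near the 64.4% of all genes tested. Atox1, the copper chaperone of the secretory pathway, had means of 173 ± 34.2 and 85.7 ± 5.45 CPM, and Sod1, the copper and zinc superoxide dismutase, 282 ± 69.0 and 140 ± 3.98 CPM (SD, n = 4). Their log2 fold changes were -1.01 and -1.01, and -0.057 and -0.12 with the length trend removed, where neither was called (edgeR, adjusted p = 0.592 and 0.289). The copper pump Atp7a rose from 23.6 ± 9.45 to 56.5 ± 6.97 CPM (SD, n = 4), with a log2 fold change of 1.26 in edgeR's test.

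Of 11 tested genes of the response to heavy metals and oxidants, 3 rose and 5 fell (median log2 fold change -0.24). The called share was 72.7%, against 64.4% of all genes tested. Gclc, the catalytic subunit of glutathione synthesis and a known MTF-1 target, rose from 365 ± 85.5 to 959.9 ± 64.2 CPM (SD, n = 4), with a log2 fold change of 1.39. Hmox1, a heme oxygenase induced by cadmium, fell to 42.1 ± 4.43 CPM from 81.5 ± 12.0 CPM in controls (SD, n = 4). The cystine importer Slc7a11 had a log2 fold change of -1.40.

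The likeness of other genes to Mt1 was measured as the Pearson correlation of log2 CPM over the 8 libraries. The 5 genes most like it among 11519 were Ccne1, Slc4a1, Mt2, Evc and Lsm8, with correlations of 0.998, 0.998, 0.998, 0.997 and 0.997. These points share the split into 2 groups, and 77 genes had a correlation above 0.99. Once group means were removed, the correlation with Mt1 was 0.599 for Mt2, -0.776 for Slc39a10, -0.431 for Slc39a14 and -0.258 for Mtf1. It was 0.8621 for Ccne1, 0.6875 for Lsm8, 0.6075 for Slc4a1 and 0.4914 for Evc, so 3 of these stood above Mt2. Control library 3 was the lowest control for Mt1 and the highest library for Slc39a10. Its part in the value of -0.776 was not tested. Over all 8 libraries Slc39a14, Slc39a10 and Mtf1 stood at places 4510, 4712 and 6744.

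**Figure D5:**
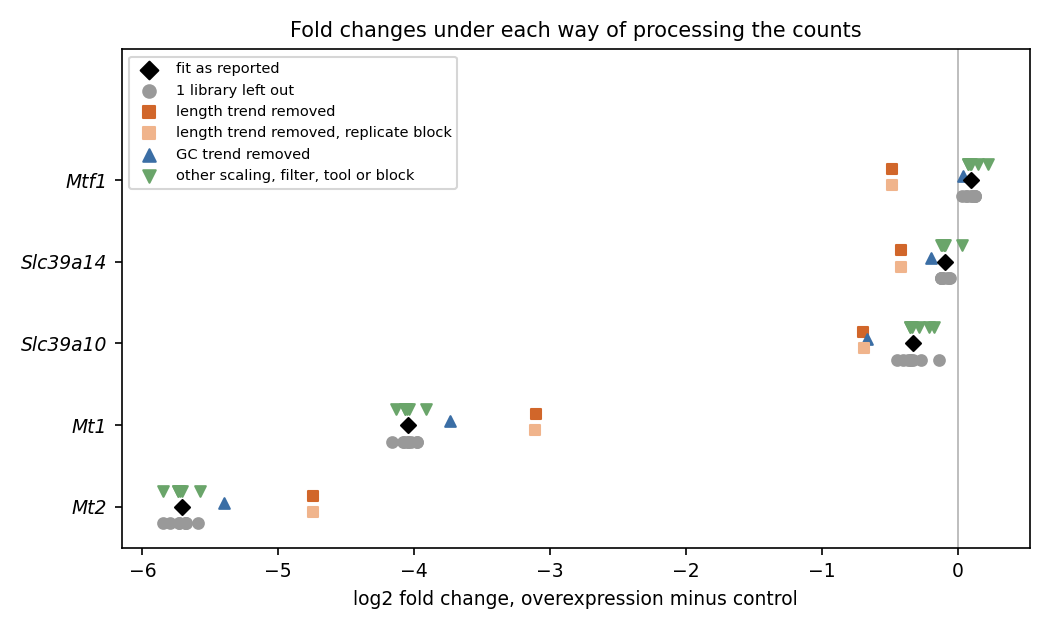
Log2 fold changes of the 5 members with counts under each way of processing the counts. Black diamonds are the values as reported, grey points leave out 1 library each, and coloured marks are the other alternatives. The marks of Mt1 and Mt2 stay between -4.17 and -3.11 and between -5.85 and -4.75, while those of Mtf1 and Slc39a14 lie on both sides of 0.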

How the data were processed

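RNA-seq gene counts of 8 AML-12 libraries, 4 per group by their titles, were analysed. Trizol RNA went into NEBNext Ultra libraries, per the labels' protocols. The authors deposited raw counts per gene symbol, not normalized. FastQC, STAR, HTSeq and mm10 are named in the submitters' processing notes. Their versions, annotation and strand setting are not given there.

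Of 21983 symbols, 21926 matched GENCODE M21 (GRCm38, the assembly that mm10 names), which gave coordinates, lengths and GC. Counts were tested in R 4.3.3 with edgeR 4.0.16: filterByExpr (minimum count 10), trimmed-mean scaling, the two-sided quasi-likelihood test of the group term alone, and Benjamini-Hochberg adjusted p over all 11520 tested genes, called at 0.05. SE is the log2 fold change over the square root of F. Alternatives were other scalings, no filter, DESeq2 1.42.0, limma 3.58.1 voom with quality weights, a replicate block, each library left out, and length or GC trends removed (lowess, span 0.3). On simulated data for this comparison (11434 genes) the test recovered 36%, 82%, 98% and 94% of the genes given folds of 1.5, 2, 4 and 8, 50 genes for each fold, with 7 false calls among 162. No other genes were changed there, while 64.4% of tested genes were called in the data. The adjustment of p depends on that share, so the recovered percentages do not give the power of the real comparison. Libraries of a group differed by a chi-square of 2.44 to 105.6 per gene, so none matched within counting noise. Floors and intervals of counts cover counting error only.

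The members and gene lists were chosen with earlier results of these data known. Named genes were the 6 members, every called Slc30 or Slc39 gene, up to 3 called genes of each other list by smallest p, and the 5 genes most correlated with Mt1. Promoters were from RefSeq (GRCm38.p6), found for 5 of the 6 members. Gm47544 itself is not analysed here, so the overexpression could not be checked. Figures used matplotlib 3.10.9.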

Additional observations from a re-analysis of the deposited data

Results flagged for a closer look

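3 values were marked because 1 library lay far from the other 3 of its group, among 62 groups of 4 examined, of which chance marks about 1 in 20. Mt2 was at 133.3 CPM in control library 3, against 179 to 184 CPM in the other controls, and without that library it was 57.6-fold lower with overexpression. Slc30a9 was at 107.5 CPM in control library 3, against 66.0 to 72.7 CPM in the other controls. Slc30a7 was at 57.2 CPM in overexpression library 3, against 60.5 to 60.8 CPM in the others of its group.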

How the results depend on the processing

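The falls of Mt1 and Mt2 kept their direction and call in every alternative run. The total counts of changed genes stayed within 1.5 times (all genes 7417, zinc transporters 9), but the transporters went from 3 higher and 6 lower to 1 and 8 with the length trend removed and 2 and 9 with the GC trend removed. Leaving out 1 library moved the log2 fold change between -4.17 and -3.98 for Mt1, -5.85 and -5.59 for Mt2, -0.44 and -0.14 for Slc39a10, and the difference of the log2 ratio between 1.55 and 1.75, where the groups' separation fixes the permutation p in advance. Mtf1 turned to -0.49 with the length trend removed and -0.48 with the replicate block besides, Slc39a10 was called at -0.70, -0.69 and, with the GC trend removed, -0.67, and Slc39a14 at -0.42, -0.42 and -0.20, turning to 0.032 with library totals alone. Among transporters that were not members, the sign turned with the length trend removed, without and with the block, for Slc30a7 (-0.032, -0.022), Slc30a9 (-0.020, -0.013) and Slc39a6 (-0.054, -0.053), and with the GC trend removed for Slc30a5 (-0.036), Slc30a6 (-0.37) and Slc39a4 (0.021). Slc30a6 also turned with no filter (-0.013), with DESeq2 (-0.012) and without control library 1 or 3 (-0.055, -0.057) or overexpression library 3 or 4 (-0.018, -0.019), and leaving out 1 library moved it up to 0.076. The cause of these shifts was not tested. Scaling by library totals alone moved the median of all genes by 0.128 and the share of calls that were higher from 50.2% to 58.4%.

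The replicate numbers pair the samples only by name: deviations of same-numbered libraries correlated between -0.104 and 0.0224, and 0 of 8 libraries correlated best with their own number. The replicate block gave 7129 calls against 7417 and left every member's call as it was. Slc30a1 has 0 counts, so no alternative could give it a value. In the overexpression libraries Mt2 rests on 39 to 51 counts each.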

Other observations

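Glucocorticoids and interleukin-6 are known inducers of metallothionein genes in liver, so genes that respond to them were also counted. Of 8 tested glucocorticoid-responsive genes, 3 rose and 1 fell, so that 50% were called, against 64.4% of all genes tested. Fkbp5, a chaperone of the receptor, had means of 95.9 ± 7.01 and 160.0 ± 11.9 CPM, and Klf9 44.8 ± 9.63 and 79.1 ± 1.54 CPM (SD, n = 4), with log2 fold changes of 0.74 and 0.82 in edgeR's test. Dusp1, a phosphatase of MAP kinases, had a log2 fold change of -0.88. The receptor gene Nr3c1, named after its value was seen, had a log2 fold change of 0.91.

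Of 11 tested genes of interleukin-6 and STAT3, 4 rose and 3 fell, and this 63.6% was near the 64.4% of all genes tested. The fibrinogen genes Fgb, also in the hepatocyte list, and Fga rose from 27 and 19 counts over the controls to 187 and 168 counts (log2 fold changes of 2.89 and 3.17 in edgeR's test). Haptoglobin, from Hp, fell from 10.5 ± 3.15 to 1.5 ± 0.81 CPM (SD, n = 4), with a log2 fold change of -2.82. The other called genes of this list, given for completeness after their values were seen, were Il6st and Stat3, which rose (log2 fold changes of 0.65 and 0.44), and Saa3 and Bcl3, which fell (-0.78 and -0.52).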
